A study of Mus musculus with 4 samples.

Results

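The regions described here are the peaks of a Flag ChIP-seq experiment that were called in the first of 2 libraries and met no peak in the second. They were chosen by a measured outcome: a replicate 1 peak on chromosomes 1 to 19 entered when it overlapped no replicate 2 peak by a single base. This gave 1361 of 12627 replicate 1 peaks, or 10.8% (exact 95% interval 10.2 to 11.3%), against a replicate 2 list of 25539 peaks on the same chromosomes. They are termed replicate 1-only peaks, and the other 11266 are termed partnered peaks. A peak missing from a list did not reach that list's cutoff. It is not shown to lack signal.

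The cells were lineage-negative bone-marrow cells from C57BL/6 mice aged 8 weeks with the genotype 3xFlag-Nynrin-Tg, and every library of the series came from this same genotype, strain, age and cell population. Lineage-negative marrow is depleted of mature blood cells and holds stem and progenitor cells, so it is a mixture. The series has 2 Flag ChIP libraries and 2 input libraries, and the inputs were not analysed here. No library from mice without the tag was used here. The sources used here do not give the promoter that drives the transgene, the number of founder lines or whether animals were pooled, and they do not state that the replicates came from separate mice. A peak list holds no expression values, so the cell type could not be checked against marker genes.

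Chromatin immunoprecipitation recovers DNA cross-linked to a tagged protein, and a peak caller marks places where the recovered fragments pile up above a background level. Such lists commonly hold strong peaks at promoters, the regions around gene starts where transcription begins, and weaker peaks inside genes and between them, including enhancers, which act on promoters from a distance. Nynrin encodes a protein with an NYN ribonuclease-like domain and a retroviral integrase-like region. Peaks inside genes and between them are described here by their position alone.

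The replicate 1-only peaks that lay at promoters are shown first, because the data bear on their base composition. RefSeq promoters run from 250 bases before to 50 after an annotated start. The table used (GRCm38.p6, the assembly behind mm10) gave 20084 promoters for 16456 of the 20661 protein-coding genes on chromosomes 1 to 19. Replicate 1-only peaks overlapped 43 of these promoters, belonging to 41 genes, and partnered peaks overlapped 6608. The first 4 below are the strongest of those at genes with no replicate 2 summit within 1000 bp of either end. Ends are the bounds of the gene. At Arid5b a replicate 2 peak (68277505 to 68278460, summit 1010 bp inside the 5′ bound) lay near the internal start shown, at 68278726. The last, at Srcap, a chromatin remodelling gene, lies under the strongest partnered peak that overlaps a promoter in the table and is given for contrast. They are RefSeq sequences read 5′ to 3′ on the strand of the gene, and capitals mark each CpG, the dinucleotide that is frequent in the promoters of widely expressed genes. The Zfp457 promoter is chr13:67306363-67306662 (minus strand), that of Epsti1 is chr14:77903989-77904288 (plus), that of Arid5b is chr10:68278677-68278976 (minus, at an annotated start inside the bounds of the gene), that of Gimap6 is chr6:48708195-48708494 (minus) and that of Srcap is chr7:127511733-127512032 (plus).
Zfp457: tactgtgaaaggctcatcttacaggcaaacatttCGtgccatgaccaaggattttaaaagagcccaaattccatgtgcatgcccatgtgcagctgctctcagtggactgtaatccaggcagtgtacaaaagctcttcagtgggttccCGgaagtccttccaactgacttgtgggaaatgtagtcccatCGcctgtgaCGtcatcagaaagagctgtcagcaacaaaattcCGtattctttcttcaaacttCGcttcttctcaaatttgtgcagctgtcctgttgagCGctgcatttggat
Epsti1: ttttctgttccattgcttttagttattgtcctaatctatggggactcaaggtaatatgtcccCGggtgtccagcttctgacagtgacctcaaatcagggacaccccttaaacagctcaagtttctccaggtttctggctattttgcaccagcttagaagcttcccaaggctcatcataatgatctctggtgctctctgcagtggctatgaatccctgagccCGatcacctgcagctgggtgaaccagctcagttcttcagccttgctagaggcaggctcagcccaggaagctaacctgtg
Arid5b: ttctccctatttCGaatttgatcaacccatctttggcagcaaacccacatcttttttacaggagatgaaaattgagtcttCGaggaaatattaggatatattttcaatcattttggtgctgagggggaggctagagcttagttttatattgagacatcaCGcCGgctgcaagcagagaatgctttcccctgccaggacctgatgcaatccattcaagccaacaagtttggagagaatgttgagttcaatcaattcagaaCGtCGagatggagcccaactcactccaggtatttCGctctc
Gimap6: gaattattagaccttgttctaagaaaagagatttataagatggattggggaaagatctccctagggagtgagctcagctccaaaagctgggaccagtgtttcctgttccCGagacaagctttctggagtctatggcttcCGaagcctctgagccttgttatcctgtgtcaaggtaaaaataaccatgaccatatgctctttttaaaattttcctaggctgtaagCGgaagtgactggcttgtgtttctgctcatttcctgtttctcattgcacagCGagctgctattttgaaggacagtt
Srcap: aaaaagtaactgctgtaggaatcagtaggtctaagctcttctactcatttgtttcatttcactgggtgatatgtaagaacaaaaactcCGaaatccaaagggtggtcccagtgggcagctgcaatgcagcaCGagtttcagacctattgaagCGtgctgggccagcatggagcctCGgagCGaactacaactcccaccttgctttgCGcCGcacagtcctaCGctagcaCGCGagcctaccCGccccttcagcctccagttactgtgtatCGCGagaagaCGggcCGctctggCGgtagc

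These 300-base promoters held 7 CpG at Zfp457, which encodes a zinc finger protein, 2 at Epsti1, an interferon-inducible gene, 7 at Arid5b, which encodes a DNA-binding protein, and 4 at Gimap6, a GTPase gene of immune cells. The Srcap promoter held 16. The peak covered all 300 bases at Zfp457 and Gimap6, 132 bases at Epsti1 and 63 bases at Arid5b. Across the 43 promoters under replicate 1-only peaks, the median CpG count was 7, the median ratio of observed to expected CpG was 0.44 and the median GC content was 49.7%. The 6608 under partnered peaks had medians of 24 CpG, a ratio of 0.85 and 63.0% GC, and the 10611 promoters under no peak of either replicate had 5 CpG, a ratio of 0.27 and 51.0% GC. In these medians the promoters under replicate 1-only peaks were closer to those under no peak than to those under partnered peaks. Promoters under replicate 2 peaks that had no replicate 1 partner had 19 CpG, a ratio of 0.71 and 60.7% GC. Neither comparison was tested, since promoters are not replicates of the experiment. The selection removed the replicate 1 peaks that met replicate 2 peaks, so the base composition is not independent of the selection.

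Short motifs were searched on both strands of these promoters, and shares are given in turn for the 43 promoters, those under partnered peaks, those under no peak and all. The GC-box core GGGCGG was in 39.5% (17), 71.6%, 27.2% and 47.0%. CCGGAA, the core read by ETS factors, was in 18.6% (8), 36.3%, 6.72% and 19.1%. TATAAA was in 25.6% (11), 5.42%, 18.9% and 12.7%, and AGATAA, a form of the GATA site, was in 18.6% (8), 4.71%, 13.5% and 9.57%. CCAAT was in 41.9%, 39.9%, 37.4% and 38.1%. Of the other motifs searched, CACGTG, TGACGTCA and TGAGTCA were in 3 of the 43 promoters each (6.98%). Under partnered peaks their shares were 11.8%, 4.39% and 2.45%, under no peak 5.06%, 1.02% and 6.31%, and over all promoters 7.89%, 2.30% and 4.70%. A match is a stretch of letters and does not show a factor's binding. Counts among the 43 promoters are small and no interval was computed for them. The sets of promoters differ in GC content, which was not matched.

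**Figure D1:**
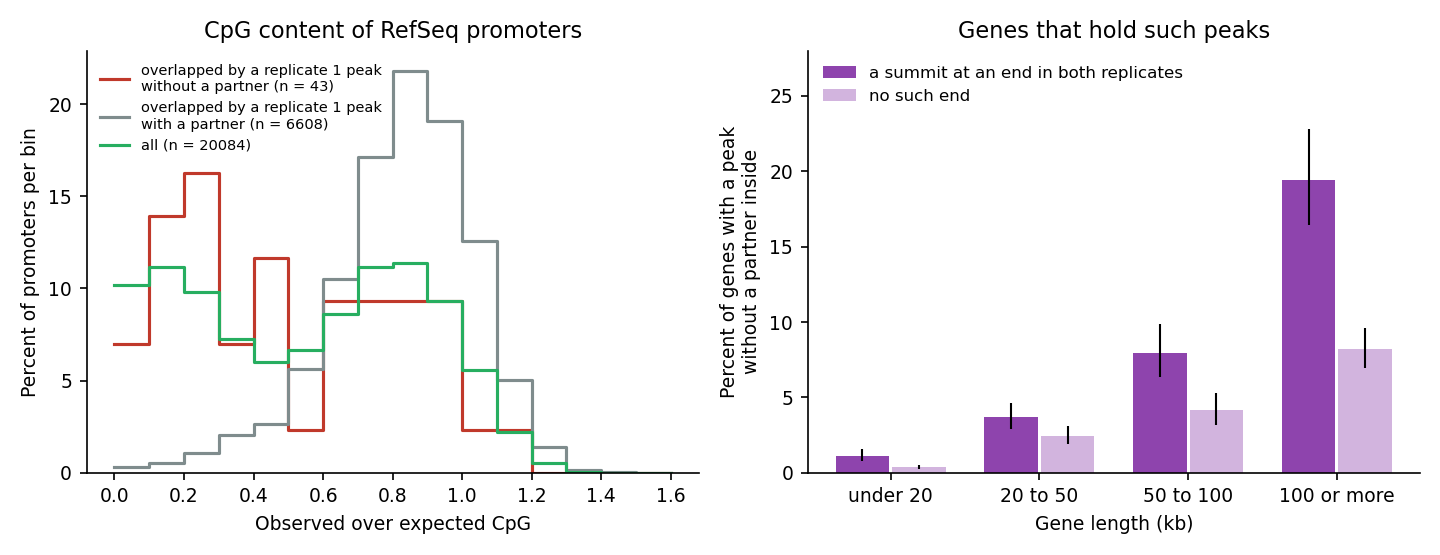
Left, the ratio of observed to expected CpG (x axis, bins of 0.1) against the percent of promoters in each bin, for promoters under replicate 1-only peaks (red, n = 43), under partnered peaks (grey, n = 6608) and all promoters (green, n = 20084). The red curve spreads over low and high ratios (median 0.44) and the grey curve peaks at high ratios (median 0.85). Right, the percent of protein-coding genes that hold a replicate 1-only summit more than 1000 bp inside both ends, by gene length in kb. Genes with a summit at an end in each replicate, not always the same end, are shown beside the rest. Bars carry exact 95% intervals and are higher with gene length. In each length class they are higher for genes with an end summit in each replicate.

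How these peaks differed in size and strength from the partnered ones was measured next. Width and strength come from the list that the selection used, so these values are descriptions without a test. The median width was 318 bp, with the middle 50% of peaks between 271 and 404 bp, against a median of 563 bp for partnered peaks. The deposited fold enrichment, a linear ratio of signal to the caller's background, ran from 2.34 to 6.53 with a median of 3.69, against 4.13 for partnered peaks, which reached 13.3. The median −log10 q was 3.21 against 5.46. A −log10 q of at least 5 was reached by 160 replicate 1-only peaks (11.8%) and by 55.1% of partnered peaks. The share of replicate 1 peaks with no partner was 30.7% among peaks under 300 bp wide, 450 of 2253 from 300 to under 400 bp, 8.54% from 400 to under 600 bp and 1.29% at 600 bp or more. By strength it was 21.8% at −log10 q under 2, 25.4% from 2 to 3, 15.5% from 3 to 5 and 2.51% at 5 or more, so the weakest class was not the one with the highest share.

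**Figure D2:**
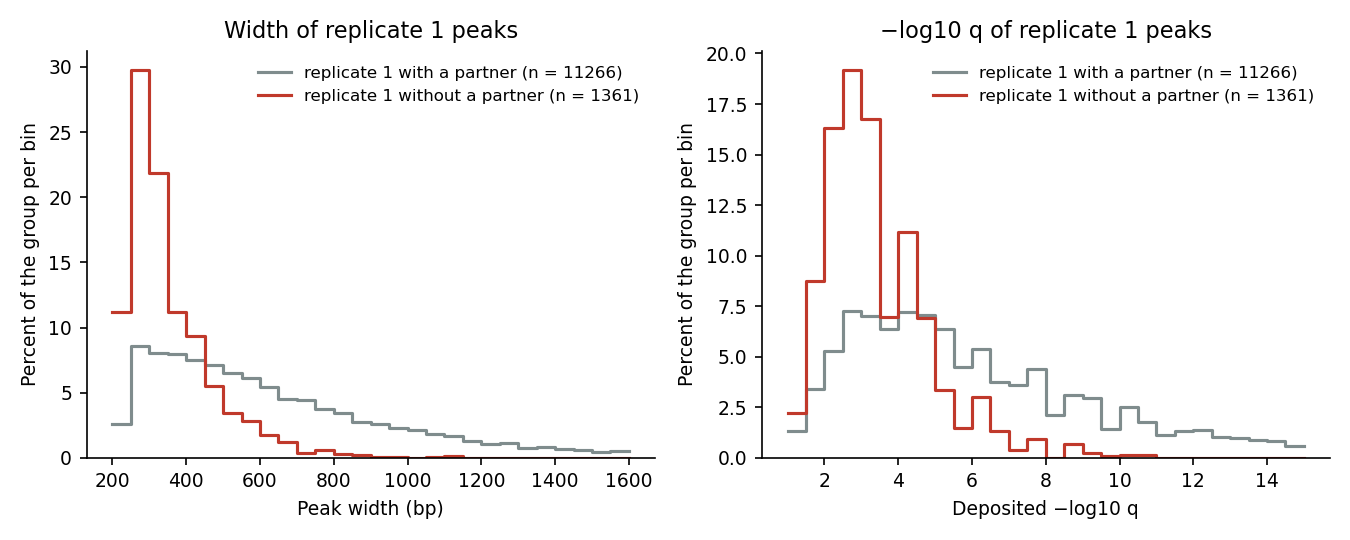
Width in bp (left, bins of 50 bp) and deposited −log10 q (right, bins of 0.5) of replicate 1 peaks on the x axes, against the percent of each group per bin, for the 1361 replicate 1-only peaks (red) and the 11266 partnered peaks (grey). The red curves are narrow, around medians of 318 bp and 3.21, while the grey curves spread to wider and stronger peaks.

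Many of these peaks shared the same few fold enrichments. The 1361 peaks took 346 distinct values, and 135 of them (9.92%) had a fold enrichment of 3.69, 126 had 3.98, 101 had 3.41, 94 had 4.26 and 56 had 4.54. These are successive whole multiples, from 12 to 16, of a step of 0.284. What sets the step was not tested. Within 0.01 of a step, 619 replicate 1-only peaks (45.5%, exact 95% interval 42.8 to 48.2%) lay on the ladder, with a median of 14 steps, and 82.9% of these were at 12 to 16 steps. Of the partnered peaks 1350 of 11266 did, with a median of 16 steps. In replicate 2, whose step was 0.266, 66.3% of peaks without a partner lay on the ladder, and so did 66.3% of all peaks. The depth of the libraries is unknown, and no read count was taken from these steps.

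The position of the summits relative to genes was not used directly in the selection. Of the 1361 summits, 115 (8.45%, exact 95% interval 7.03 to 10.1%) lay no more than 1000 bp from a protein-coding gene's start or end, against 55.2% of partnered summits (54.3 to 56.2%) and 21.8% of replicate 2 summits without a partner (21.1 to 22.4%). Elsewhere inside protein-coding genes lay 641 (47.1%), against 23.3% and 42.5%. Between genes lay 431 (31.7%), against 13.0% and 24.5%. The remaining 78 at ends of other genes (5.73%) and 96 inside other genes (7.05%) compared with 5.69% and 2.82% of partnered summits. The median distance to a protein-coding gene end was 13695 bp, against 549.5 bp for partnered summits and 6736 bp for replicate 2 summits without a partner. These intervals cover the counting of peaks only, and with 1 library on each side no test over samples was possible.

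**Figure D3:**
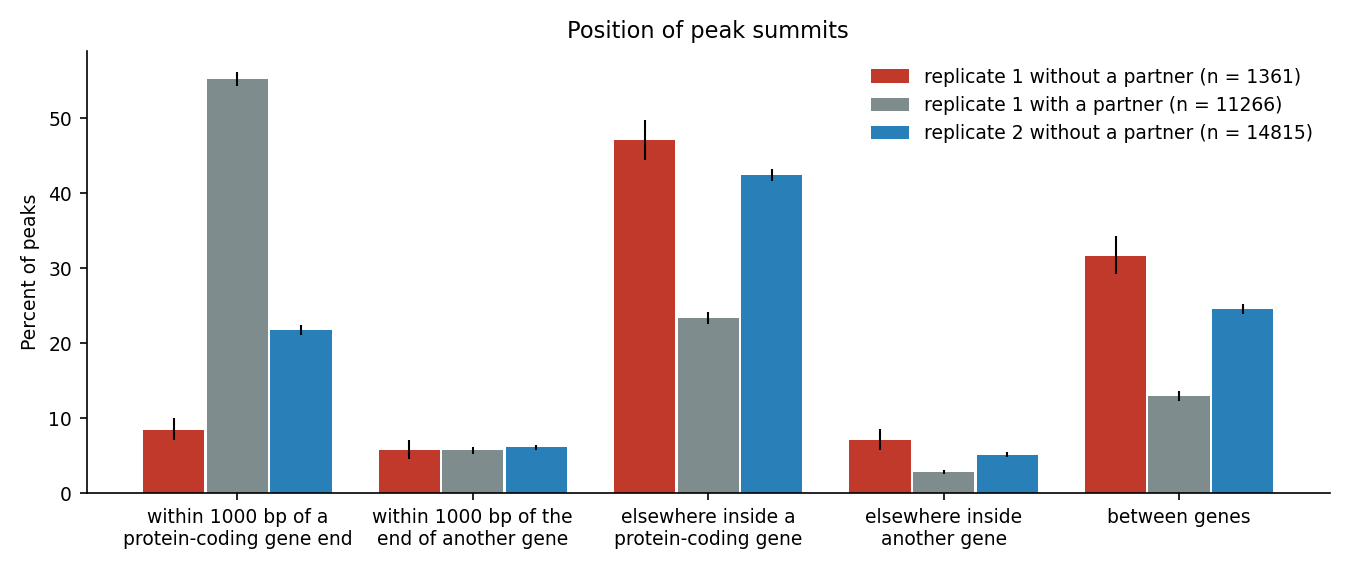
Percent of peak summits (y axis) in 5 positions relative to genes (x axis), for replicate 1-only peaks (red, n = 1361), partnered replicate 1 peaks (grey, n = 11266) and replicate 2 peaks without a partner (blue, n = 14815), with exact 95% intervals. At protein-coding gene ends the red bar is 8.45% and the grey bar 55.2%, and inside such genes the red bar is 47.1% and the grey bar 23.3%.

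The low share at gene ends was also seen within classes of replicate 1 strength or width. At −log10 q under 2 it was 11.4% for replicate 1-only and 45.2% for partnered peaks, from 2 to 3 it was 7.87% and 40.1%, from 3 to 5 it was 7.56% and 46.3%, and at 5 or more it was 10.6% and 64.0%. Among peaks under 300 bp wide it was 8.98% and 35.3%, and at 600 bp or more it was 10.4% (7 of 67) and 67.3%. Read the other way, 1.81% of the replicate 1 summits at protein-coding gene ends had no partner (115 of 6338), against 19.6% inside these genes, 23.2% inside other genes, 22.8% between genes and 10.8% at ends of other genes. Replicate 2 peaks were themselves frequent at protein-coding gene ends, with 36.1% of all and 54.9% of those at least 600 bp wide. The selection removed replicate 1 peaks that met them, so the shares at gene ends are not independent of the selection. Of the 78 peaks at ends of other genes, 45 were at long noncoding RNA genes, 15 at pseudogenes, 6 at transfer RNA genes and 3 at microRNA genes. The same counts for partnered peaks or over all genes of these types are not given here. Where the strand of the gene was known from the promoter table, 84 replicate 1-only summits (6.17%) were within 1000 bp of a 5′ end, against 44.9% of partnered summits and 14.7% of replicate 2 summits without a partner. At a 3′ end and no 5′ end were 13 (0.955%), against 1.41% and 2.79%.

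The distance to the closest replicate 2 peak was above 0 for all 1361 by construction. It was a median of 6357 bp, with the middle 50% between 1125 and 20113 bp and a range of 2 to 3268391 bp. A replicate 2 peak was 1 to 100 bp away from 85 peaks (6.25%), over 100 and up to 500 bp from 167 (12.3%) and more than 100000 bp from 72 (5.29%). The share at protein-coding gene ends was highest in the classes of smallest gap. It was 28.2% (24 of 85) at gaps up to 100 bp, 21.6% (36 of 167, exact interval 15.6 to 28.6%) over 100 and up to 500 bp, and between 4.12% and 6.94% in each class beyond. The replicate 2 peak closest to a replicate 1-only peak had itself another replicate 1 partner in 618 of 1361 cases (45.4%). This share ran from 37.6% to 51.5% over the classes of distance. Over the whole replicate 2 list, 10724 of 25539 peaks had a replicate 1 partner, which is a similar share. The closest replicate 2 peak had a median fold enrichment of 4.52, against 4.66 over its whole list.

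**Figure D4:**
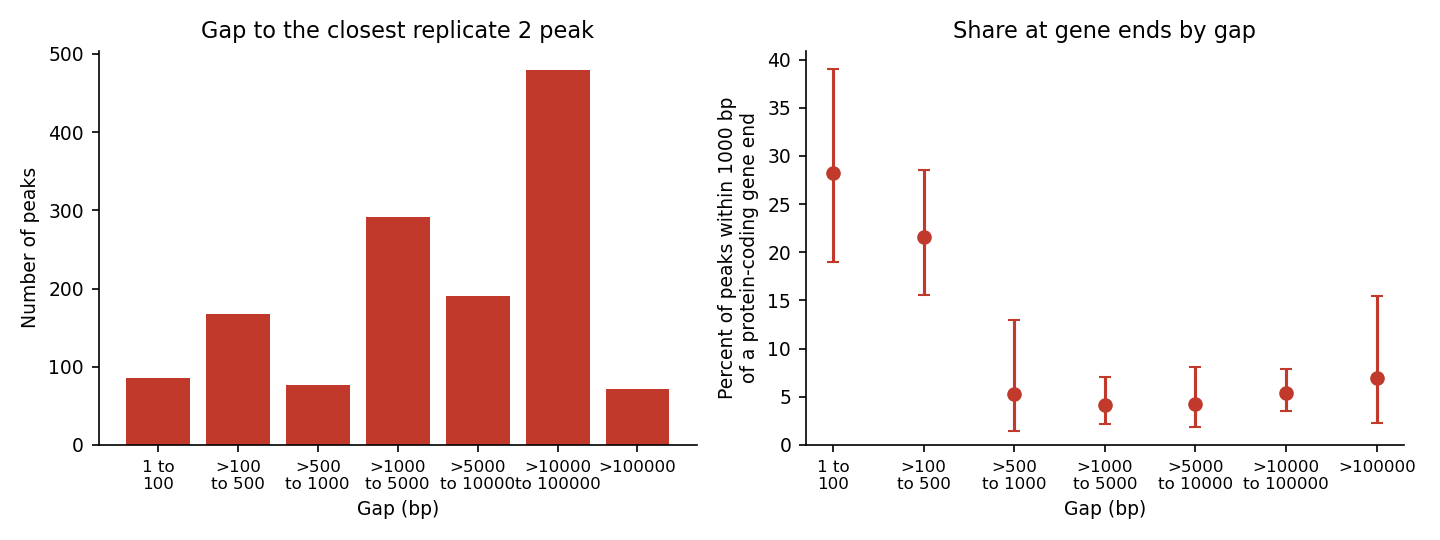
Left, the number of replicate 1-only peaks (y axis) by gap in bp to the closest replicate 2 peak (x axis, 7 classes of unequal width). Right, the percent of the peaks in each class with a summit within 1000 bp of a protein-coding gene end, with exact 95% intervals: 28.2% and 21.6% in the classes up to 500 bp, and 6.94% or less beyond.

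Next to the threshold of the selection, peaks on both sides had similar fold enrichments. The 5 closest peaks without overlap lay 2 to 7 bp from a replicate 2 peak. They were inside Lta4h, a leukotriene enzyme gene (fold enrichment 3.31), Inpp5d, which encodes the SHIP1 phosphatase (3.61), Fyb, an adaptor gene of blood cells (3.12), and the calcium pump gene Atp2c1 (4.49), and 887 bp from an end of Crebbp, a histone acetyltransferase gene (3.62). The 5 peaks with the smallest overlap shared 1 to 3 bp with a replicate 2 peak and were named by the gene that holds them or is closest, Tbc1d1 (3.84), Arpc4 (2.93), Nsd3 (4.26), Polr3gl (3.44) and Tmpo (4.08). In all, 48 peaks lay within 50 bp of a replicate 2 peak without touching it, and 65 overlapped one by 1 to 50 bp.

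The peak farthest from any replicate 2 peak was on chromosome 1 (101902131 to 101902462), 3268391 bp away and 1411613 bp from an end of Cntnap5b, a neuronal adhesion gene, with a fold enrichment of 4.54. Next were a peak deep inside Fhit, a large gene at a fragile site (1830896 bp from a replicate 2 peak), one 75765 bp from Cyp7b1, a sterol hydroxylase gene (842766 bp, 5.11), and 2 inside Dpp6, a potassium channel subunit gene, at 594709 and 583592 bp, with fold enrichments of 4.26 and 3.20.

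The widest peak was 1958 bp (chromosome 13, 119613875 to 119615832, fold enrichment 2.92), 4299 bp from Tmem267. Other wide peaks were of 1109 bp at the end of a gene that is not protein-coding, 15737 bp from Gm13271, of 1067 bp inside the guanine deaminase gene Gda, and of 996 bp at Ccdc125. The fold enrichments of these 4 ran from 2.92 to 3.82, and none was among the 20 strongest peaks.

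The 20 strongest replicate 1-only peaks had fold enrichments of 5.68 to 6.53. Of these, 1 was at a protein-coding gene end, 11 were elsewhere inside such genes, 7 were between genes, and 1, inside Cd274, was at the end of a gene that is not protein-coding. The first was 18797 bp from Dars, an aminoacyl-tRNA synthetase gene (6.53). It was followed by peaks inside Snx31 (6.41), the helicase gene Wrn (6.25) and the receptor gene Nrp1 (6.25), by peaks near Spryd7 (6.14) and Ldlrad3 (6.12), and by the gene-end peak, 52 bp outside Zfp40 (6.09). Inside genes were also Ikzf1, Rabgap1l, Gcnt1, a glycosyltransferase gene, and Defb14, a defensin gene, all at 5.97, together with Scn2b (5.91), Tnrc6b, Qk, an RNA-binding protein gene, and Aplnr, the apelin receptor gene, all at 5.68. Pogk and Pfpl (5.97), Sv2c and Lacc1 (5.68) were the closest genes to the others, and Cd274, whose closest end was 3074 bp from the summit, encodes the immune checkpoint ligand PD-L1 (5.68). The replicate 2 peak closest to these 20 was between 48 bp (Scn2b) and 352236 bp (Zfp40) away.

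Genes that had a replicate 1-only summit at an end and no replicate 2 summit at either end were counted. This held for 44 of 20661 protein-coding genes (0.213%), and 9775 genes (47.3%) had a replicate 2 summit at an end. In 34 of the 44 the replicate 1-only peak was at the 5′ end, in 5 at the 3′ end, and in 5 the strand was not in the table. After Zfp40, the strongest were Zfp457 (fold enrichment 4.83), Epsti1 (4.74), the actin-binding profilin gene Pfn2 (4.73), Arid5b (4.67), 4930415O20Rik (4.59), Gimap6 (4.54), the acetyltransferase gene Nat2 (4.51) and Ugt1a6a, a glucuronosyltransferase gene (4.27). They were followed by the histone gene H3c14 (4.26), the fatty acid transporter gene Slc27a2 (4.17), Bbs1, a cilium gene (4.08), Trim30d (4.06), the tight junction gene Marveld2 (3.98) and Wwc1 (3.94). Among these 15 the gap to a replicate 2 peak ran from 453 bp at Arid5b to 501935 bp at Nat2. Zinc finger, Gimap, Ugt1a, Trim30 and histone genes belong to families of similar neighbours, where reads may map to more than 1 copy, and the effect of this was not tested. The Ugt1a genes overlap, so 1 peak there is at or inside several of them.

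In all, 729 of 20661 protein-coding genes (3.53%) held a replicate 1-only summit at an end or inside. The share was higher for longer genes. It was 1.02% for genes under 20000 bp, 4.71% from 20000 to under 100000 bp and 11.9% at 100000 bp or more. Summits inside, counted over 1000 bp from both ends of the gene, were also more frequent in genes with a summit at an end in each replicate. This held for 33.5% of genes (6929). The replicates could be at opposite ends of a gene, and peaks with and without a partner counted. Among genes of at least 100000 bp, 121 of 622 with an end summit in each replicate held a replicate 1-only summit inside (19.5%, exact interval 16.4 to 22.8%). Of the other genes of this length, 139 of 1690 did (8.22%, 6.96 to 9.64%). From 50000 to under 100000 bp the shares were 7.98% and 4.15%, from 20000 to under 50000 bp 3.72% and 2.47%, and under 20000 bp 1.14% and 0.361%. The share was higher for genes with an end summit in each replicate in all 4 length classes. Partnered peaks were also frequent in such genes. Of summits inside a protein-coding gene away from ends, 52.3% of replicate 1-only and 44.5% of partnered ones were in them. These 2 shares were not split by gene length.

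Within genes of known strand, the 551 summits over 1000 bp from both ends were more frequent toward the 5′ end. From the 5′ to the 3′ end, 5 equal parts of the gene held 33.0%, 20.7%, 18.3%, 14.9% and 13.1% of them. For 2431 partnered summits these shares were 40.2%, 21.8%, 16.1%, 11.9% and 9.95%, and for replicate 2 summits without a partner they were 28.3%, 21.8%, 18.3%, 17.6% and 14.0%. The median length of the genes, counted once per summit, was 90302 bp for replicate 1-only and 56457 bp for partnered summits.

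Of 20661 protein-coding genes, 11 (0.0532%) held 3 or more replicate 1-only summits and 65 (0.315%) held 2. Myb, the transcription factor gene needed for definitive blood formation, Ptprc, which encodes the pan-leukocyte surface protein CD45, and Zeb2, a transcription factor gene of stem and myeloid cells, held 4 each. Arid5b, Fyb, the kinase genes Hipk2 and Pak2, Mctp1, the sphingomyelin synthase gene Sgms1, Taf3, which encodes a subunit of the basal factor TFIID, and the thromboxane synthase gene Tbxas1 held 3 each. Hipk2 and Tbxas1 overlap on the chromosome, and the same 3 summits were counted in both. The 11 genes were 36055 to 650923 bp long, against a median of 17491 bp for all protein-coding genes. Some were dense in summits of both lists, such as Sgms1 with 8 in replicate 1 and 15 in replicate 2, and Fyb with 5 and 11. Others were not, such as Pak2 with 4 and 1 and Taf3 with 3 and 1.

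In Myb (chromosome 10, 21124930 to 21160984, minus strand) the replicates called neighbouring places without touching. Replicate 1 had 4 peaks with summits 2889, 7142, 9537 and 16319 bp from the 5′ end and fold enrichments of 3.38, 3.98, 3.98 and 3.72. Replicate 2 had 5, at 1806, 2616, 8864, 14541 and 15935 bp, with fold enrichments of 5.85, 4.92, 4.25, 5.05 and 3.32. No peak of either list overlapped one of the other, while 3 of the 4 replicate 1 peaks lay within 142 bp of a replicate 2 peak (17, 17 and 142 bp). Every one of the 9 summits was in the first 16319 bp of the 36055 bp gene.

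In Zeb2 (chromosome 2, 44983512 to 45117442, minus strand) likewise no peak had a partner. The 4 replicate 1 summits lay 4397, 13341, 16348 and 23479 bp from the 5′ end, and the 6 replicate 2 summits lay between 5672 and 100195 bp. The gaps ran from 667 to 7861 bp, against 17 to 1520 bp at Myb, and all 4 stayed more than 500 bp from a replicate 2 peak.

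Ptprc (chromosome 1, 138062859 to 138175756, minus strand) held 9 replicate 1 summits, of which 5 had a partner and 4 did not. The 4 lay 20816, 35103, 45503 and 109208 bp from the 5′ end, with fold enrichments of 3.12, 4.26, 4.26 and 3.69. The partnered ones included a peak 39196 bp inside whose fold enrichment was 7.67 in the replicate 1 list, and its replicate 2 partner had 6.15 on the scale of its own list. The 1 Mb window that begins 138 Mb along chromosome 1, which holds Ptprc, had 12 replicate 1-only peaks of 24 replicate 1 peaks, the most of any window, and 19 replicate 2 peaks. Of the 809 such windows with a replicate 1-only peak, 473 had a single one.

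At Arid5b (chromosome 10, 68092523 to 68279355, minus strand) the peak without a partner at the 5′ end had its summit 149 bp inside the gene, and the closest replicate 2 peak, with its summit 1010 bp inside, was 453 bp away. Its other 2 lay 29829 and 87587 bp inside, and 4 further replicate 1 peaks had partners.

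**Figure D5:**
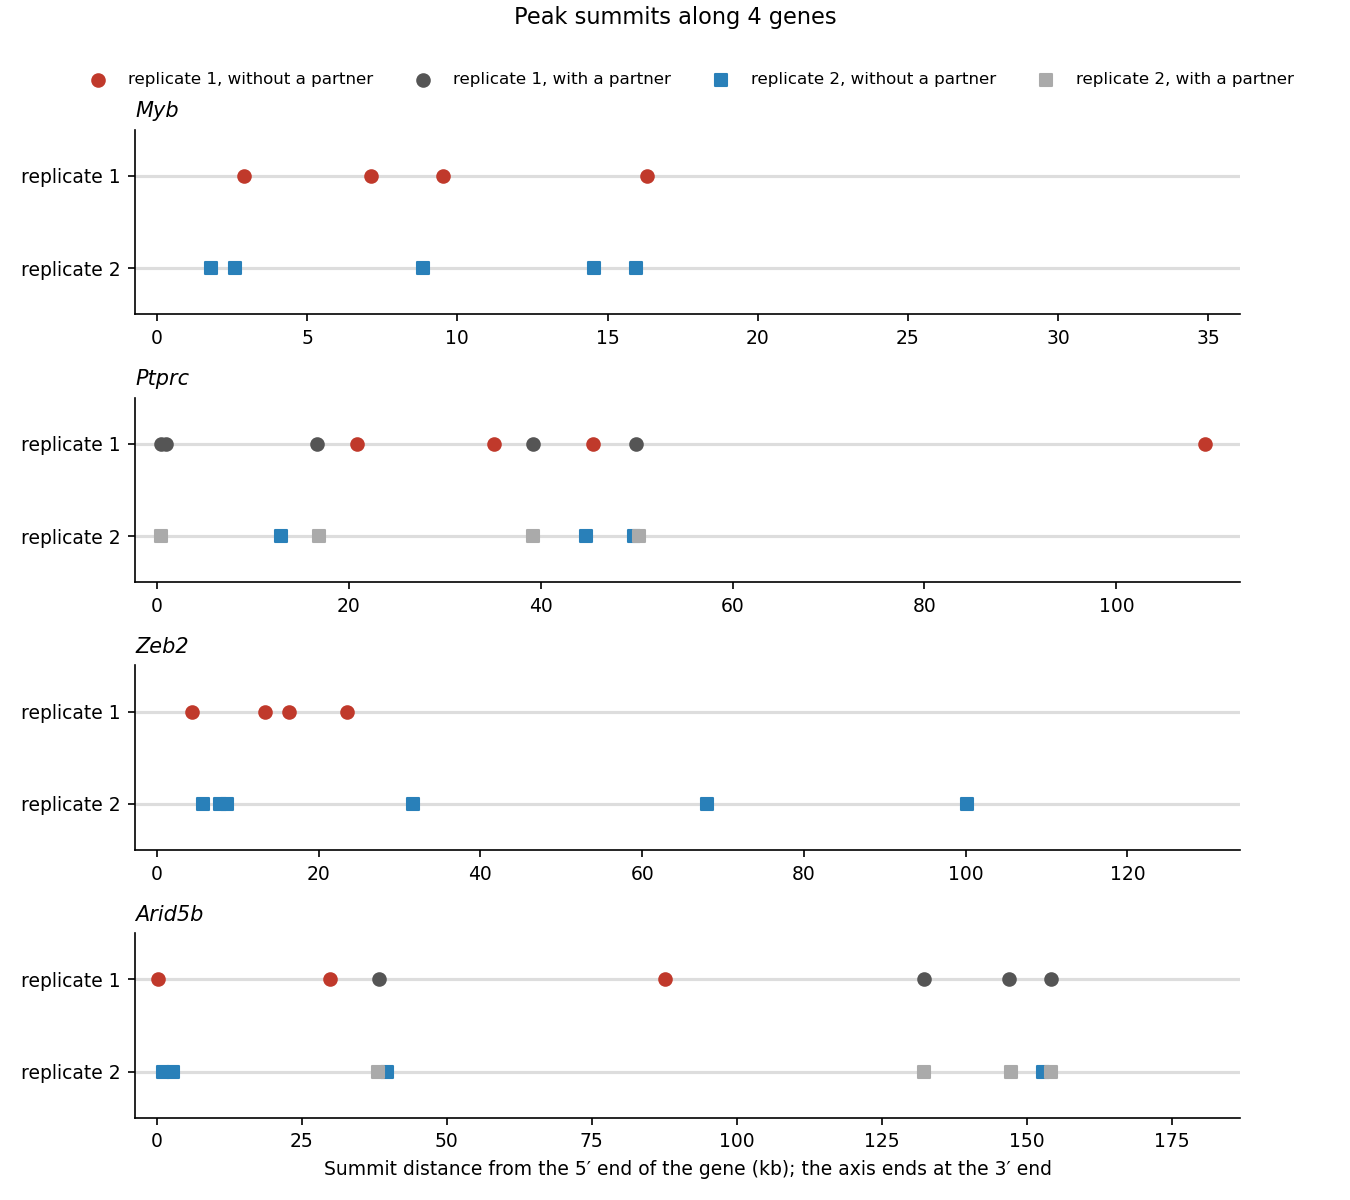
Summits of replicate 1 peaks (upper line, red without and dark grey with a partner) and replicate 2 peaks (lower line, blue without and light grey with a partner) along Myb, Ptprc, Zeb2 and Arid5b, by distance in kb from the 5′ end of each gene, drawn to the gene's own length. At Myb and Zeb2 no summit is grey, and at Ptprc 5 of 9 replicate 1 summits are.

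The gene lists examined cover blood cell programmes and, for contrast, groups of genes that blood cells need little or that all cells use. The share of each list with a replicate 1-only summit at an end or inside is set against 3.53% of all protein-coding genes. No list was tested, and list genes differ in length. Of 25 stem cell transcription factor genes, 5 held such a summit (20%, exact interval 6.83 to 40.7%), all inside the gene. Among them were Ikzf1, which encodes the lymphoid and stem cell factor Ikaros (5.97), Etv6 (4.13), Myb and Fli1 (3.98 each). The median length of this list was 54383 bp, and 56.0% of it held a partnered peak, against 40.0% of all genes. Of 28 surface and cytokine receptor genes, 3 did (10.7%, 2.27 to 28.2%): Ptprc, Slamf1, which encodes the stem cell marker CD150 (3.69, 29176 bp from a replicate 2 peak), and the integrin gene Itga4 (3.38). Slamf1 held no replicate 2 summit inside.

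Of 25 myeloid genes, 4 did (16.0%, 4.54 to 36.1%). They were the granule gene Ltf (4.66), the collagenase gene Mmp8 (3.96, 39 bp from its 5′ end and 8845 bp from a replicate 2 peak), the gelatinase gene Mmp9 (3.83, 12 bp from a replicate 2 peak) and Spi1, which encodes the myeloid factor PU.1 (3.27, 57 bp). Among 34 genes recurrently rearranged or mutated in leukaemia, 7 did (20.6%, 8.70 to 37.9%), led by Ikzf1, Etv6, the chromatin gene Asxl1 (3.99) and the Ras regulator gene Nf1 (3.72). That list has a median length of 84852.5 bp and shares genes with the stem cell list. Of 23 erythroid and megakaryocyte genes 1 did, the platelet integrin gene Itgb3 (3.82). Of the 28 lymphoid genes listed none did. A count of 0 allows a share of up to 10.7% by the limit of 3 counts, and the exact interval reaches 12.3%. This covers the listed genes only. Ikzf1, counted above, and the immune genes Ctla4 and Gimap6, with such a summit at an end, were not among them. These lists also differed in the share of genes with a partnered peak, which was 40.0% of all protein-coding genes. It was 73.5% for the leukaemia list, 56% for the myeloid list and 42.9% for the receptor list. For the erythroid and megakaryocyte list it was 21.7%, and for the lymphoid list 10.7%.

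The permeability transition pore of mitochondria, named in the series title, is an opening in their inner membrane. Of 25 genes for its candidate components and regulators on these chromosomes, 20 held a partnered replicate 1 peak (80.0%) and 1 held a replicate 1-only peak (4%, exact interval 0.101 to 20.4%). This was Bcl2, which encodes an inhibitor of cell death. The peak (chromosome 1, 106581833 to 106582278, fold enrichment 4.54) was 43769 bp from the closest end of the gene and 44862 bp from a replicate 2 peak. None of 86 cytosolic ribosomal protein genes held one (up to 3.49% by the limit of 3 counts, 4.20% by the exact interval), while 89.5% of them held a partnered peak. None of 1458 olfactory and vomeronasal receptor genes did either (up to 0.206% by the limit of 3 counts, 0.253% by the exact interval), and 0.206% of these held a partnered peak. Of 50 genes listed as long synaptic and adhesion genes, with a median length of 1141954 bp, 3 did (6.00%, 1.25 to 16.5%). They were Nrg1 (4.26), Fhit (4.0) and Tenm4 (3.23). Fhit, the fragile-site gene named above, is long but is not a synaptic or adhesion gene.

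Across chromosomes, the share of replicate 1 peaks without a partner ran from 7.20% on chromosome 7 (58 of 805, exact interval 5.52 to 9.21%) to 14.1% on chromosome 13 (87 of 619). Per Mb of the span between the first and last annotated gene, it ran from 0.387 peaks on chromosome 8 to 0.910 on chromosome 19, and partnered peaks ran from 3.00 on chromosome 18 to 8.42 on chromosome 11. Chromosome 7 has the most protein-coding genes per Mb (14.0), and chromosome 13 has 7.07.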

How the data were processed

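Fixation used 1% formaldehyde (10 min) and each library 10 ng of DNA and 16 cycles of amplification, per the labels' protocols. The submitters' processing notes name MACS2 and Bowtie2, besides cutadapt, Trimmomatic, ChIPseeker and FastQC, and the build mm10. For versions, the calling control and the cutoff, the sources used here give nothing. Per library, the authors deposited 1 peak list of the ChIP, with fold enrichment as a linear ratio, and −log10 p and −log10 q values of the peak caller. The deposited score was not used. The lists hold no read counts, so depth is unknown.

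Overlaps of at least 1 bp and edge-to-edge gaps were computed, with distances of 1-based summits to the bounds of 20661 protein-coding genes in RefSeq GRCm38.p6. This used Python 3.11.15 (numpy 2.4.6, pandas 2.3.3, scipy 1.17.1). Only the gap and distance steps were checked, on copies of replicate 1 peaks moved by known gaps or given summits near gene bounds. Strand came from the RefSeq promoter table, which had no entry for chromosome 18. Shares carry exact Clopper-Pearson 95% intervals for counting error. No test across samples was made, since the comparison has 1 library on each side.

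The regions and the 10 gene lists were chosen with earlier results of these data known. Named genes were the 20 strongest peaks, the 15 strongest genes without a replicate 2 summit at an end, up to 4 genes per list, the 5 widest, farthest and closest peaks, genes with 3 or more summits inside, and the 5 smallest overlaps. Where a summit lay inside several genes, the one with the closest end was named. Alternatives changed the overlap rule, the cutoff, the window, the genes and the chromosomes. Some genes that this rule names are not reported here. Srcap was named as the promoter under the strongest partnered peak.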

Additional observations from a re-analysis of the deposited data

How the results depend on the processing

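The number of replicate 1-only peaks moved with the definition of a partner and with the cutoff. The 1361 peaks became 6680 when 50% of both peaks had to overlap, 4746 when summits had to lie within 200 bp, 2748 against replicate 2 peaks with −log10 q of at least 5, and 160 among replicate 1 peaks at that cutoff. It was 1109 when a replicate 2 peak within 500 bp counted as a partner and 1375 with X and Y. The share at protein-coding gene ends (8.45%) was 4.11% with a 500 bp window, 21.2% with 3000 bp, 14.2% at the ends of all genes, 10.6% at −log10 q of at least 5 and 4.96% beyond 500 bp from a replicate 2 peak. The share inside protein-coding genes (54.6%, ends included) was 64.3% for all genes and 45.0% at −log10 q of at least 5. At that cutoff the median width was 388 bp. The median gap was 13324 bp to replicate 2 peaks of at least that strength. The number of genes with a replicate 1-only summit at an end and no replicate 2 summit there (44) was also 44 with a 500 bp window and was 65 with 3000 bp, and these need not be the same genes. In settings chosen after the data were seen, 4 in place of 11 genes held 3 or more summits when peaks within 500 bp of a replicate 2 peak were left out (Zeb2 with 4, and Ptprc, Mctp1 and Sgms1 with 3 each; Myb kept 1), and 17 of the 20 strongest peaks were then left. All 20 stayed under the rule on summits within 200 bp, and the 3 remaining settings could not change this count by their construction. Leaving out a replicate was not run, since the selection needs both. No paired analysis was possible because the input libraries that share the replicate numbers have no peak list here, and no test was made.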

Other observations

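The immunoglobulin heavy-chain locus held a small group of replicate 1-only peaks. The 1 Mb window that begins 115 Mb along chromosome 12 held 6 of them among 10 replicate 1 peaks, with 6 replicate 2 peaks and no protein-coding gene. All 6 summits lay inside the locus Igh, and 3 of them within 1000 bp of a variable segment or a variable segment pseudogene. The Igh window was picked after its count was seen, and other windows held as many or more. Those that begin 93 Mb along chromosome 10 and 34 Mb along chromosome 17 also held 6. The one that begins 32 Mb along chromosome 19 held 7.

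Near microRNA genes, 3 hairpins had a replicate 1-only summit within 1000 bp of their midpoint, and none was overlapped. No share over all microRNA genes or for partnered peaks is given here, so the count is a list of places only. They were Mir21a, inside Vmp1 (883 bp, fold enrichment 3.86, 79 bp from a replicate 2 peak), Mir7648 (964 bp, 3.69) and Mir1945 (962 bp, 3.68).

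Outside chromosomes 1 to 19, 12 of 70 replicate 1 peaks on X and 2 of 5 on Y had no partner, as did 2 of 11 on unplaced sequences and 0 of 3 on the mitochondrial genome.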
